A study of Mus musculus with 9 samples.

Results

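Brush-border hydrolases are enzymes held on the microvilli of intestinal absorptive cells, where they split sugars, peptides and phosphate esters at the surface of the gut. The 8 genes described here were chosen by name: Sis, Treh, Mep1a, Mep1b, Anpep, Enpep, Dpp4 and Alpi. They are 8 of the 19938 genes that the array annotation names, and each had 1 probeset. The names were selected on log2 values of these same arrays by diet and day, as seen in earlier results, so a member that passes a test is not independent evidence for the group. The level over all arrays would have chosen between probesets of a gene, and here there was none to choose between.

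The data are log2 expression values of colon epithelium scraped from male C57BL/6J mice, an inbred strain, aged 9 to 11 weeks. For 1 week every mouse ate control food in which fat gave 40% of the energy. From day 0 a mouse either continued on that food or ate it with heme, the iron pigment of red meat, added at 0.2 µmol per g. RNA of the mice of a diet and day was pooled, 4 mice to a pool and 3 in the control pool of day 2, and each pool was put on 1 Affymetrix whole-transcript array. There were 5 control pools, from days 0, 2, 4, 7 and 14, and 4 heme pools, from days 2, 4, 7 and 14. The series title sets immediate against delayed responses to heme, and the days allow the members to be read along that course. No diet and day has a second pool, so every p-value measures the spread between pools of different days and not between animals. In pooled scrapings, fewer cells of a type and less RNA per cell cannot be told apart.

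As background, most of these enzymes are made in quantity by mature enterocytes of the small intestine, and several are known also from the surface cells of the colon. Sucrase-isomaltase (Sis) and trehalase (Treh) split sugars. Meprin alpha and beta (Mep1a, Mep1b) are metalloproteases, aminopeptidases N and A (Anpep, Enpep) trim peptides from the amino end, and dipeptidyl peptidase 4 (Dpp4) removes pairs of residues and cuts incretin hormones. Intestinal alkaline phosphatase (Alpi) strips phosphate from substrates that include bacterial lipopolysaccharide.

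The members parted into genes that fell, 1 that rose and others whose differences were small. By day 14 of heme, Sis stood 4.49-fold, Enpep 1.96-fold, Mep1a 1.89-fold and Dpp4 1.15-fold below the mean of the control pools, and Alpi stood 2.47-fold above it. Each of these 5 passed the test at day 14 (limma, adjusted p under 0.05), while Mep1b and Anpep did not, and Treh lay under the level at which genes were tested. At day 14 the same test called 27.1% of all 14953 genes tested, so a call at this time sets a member little apart from the rest of the array, and the sizes are more telling than the calls.

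The promoters of the 4 members with the widest movement are printed here because 3 of these genes moved down together and Alpi moved up. They are RefSeq sequences of build GRCm38.p6, each of 300 bases, reading 5′ to 3′ along the gene from 250 bases before the annotated start. All 4 genes lie on the minus strand. Capitals mark TTTAT, the core bound by CDX homeodomain factors of the gut, and CAAAGTCCA, a core bound by HNF4, on either strand. The window of Sis is chr3:72967814-72968113, that of Mep1a chr17:43502724-43503023, that of Enpep chr3:129332700-129332999 and that of Alpi chr1:87101557-87101856.
Sis: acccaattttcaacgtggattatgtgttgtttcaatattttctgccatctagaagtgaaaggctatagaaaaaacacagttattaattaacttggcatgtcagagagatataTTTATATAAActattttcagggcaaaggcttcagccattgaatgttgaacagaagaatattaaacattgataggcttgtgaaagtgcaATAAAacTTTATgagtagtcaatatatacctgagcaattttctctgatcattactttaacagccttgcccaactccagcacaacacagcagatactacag
Mep1a: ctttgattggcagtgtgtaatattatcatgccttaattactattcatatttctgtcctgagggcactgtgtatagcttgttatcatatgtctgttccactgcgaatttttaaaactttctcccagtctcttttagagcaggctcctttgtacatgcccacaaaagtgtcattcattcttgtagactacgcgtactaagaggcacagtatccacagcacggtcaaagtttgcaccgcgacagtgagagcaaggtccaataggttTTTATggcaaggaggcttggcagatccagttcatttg
Enpep: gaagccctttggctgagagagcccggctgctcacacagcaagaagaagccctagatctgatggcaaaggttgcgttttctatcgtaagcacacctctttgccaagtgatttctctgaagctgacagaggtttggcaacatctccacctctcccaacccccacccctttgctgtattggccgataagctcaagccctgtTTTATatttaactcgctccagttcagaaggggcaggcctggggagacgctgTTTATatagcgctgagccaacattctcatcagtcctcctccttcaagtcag
Alpi: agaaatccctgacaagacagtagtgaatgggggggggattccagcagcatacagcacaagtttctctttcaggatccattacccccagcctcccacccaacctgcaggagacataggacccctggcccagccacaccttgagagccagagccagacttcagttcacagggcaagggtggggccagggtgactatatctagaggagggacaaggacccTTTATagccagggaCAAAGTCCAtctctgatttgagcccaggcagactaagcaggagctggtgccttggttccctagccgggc

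The Sis window holds 4 matches to TTTAT, in 2 close pairs that begin at positions -138 and -133 and at -50 and -43, with the start counted as 0. Enpep holds 2 matches, and Mep1a, Dpp4 and Alpi hold 1 each, while the windows of Anpep and Treh hold none. TTTAT is common, being found in 40.0% of the 32851 promoters of this length, and its reverse complement overlaps the TATA box motif. CAAAGTCCA occurs in 0.475% of promoters, and was found in Alpi, at -19, and on the other strand in Treh. The palindrome bound by HNF1 and the direct repeat bound by PPAR occur in 0.00913% and 0.0396% of promoters, and were found in none of the 7 windows searched on both strands. Only exact matches were counted, so sites that differ by a base were not seen, and at such low shares an absence says little. Such matches describe these letters only.

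Sis had the widest span of the members. The control pools read 7.10, 7.52, 7.13, 7.39 and 6.92 log2 on days 0, 2, 4, 7 and 14, and the heme pools 6.64, 6.49, 5.48 and 5.04 on days 2, 4, 7 and 14. Every heme pool lay below every control pool, and the heme pools were lower at each later day. The same day's pools differed by -0.88, -0.64, -1.91 and -1.88 log2, so that by this measure the gap of day 14 was no wider than that of day 7. Averaged over days, Sis stood at 5.91 ± 0.77 log2 on heme (SD, n = 4) and at 7.21 ± 0.24 on the control diet (SD, n = 5). The difference of -1.30 log2 (SE 0.30) ranked 2 from the bottom of all 14953 genes tested, and it missed the threshold (limma adjusted p = 0.113). Sis was called against the 5 control pools on day 7 (log2 fold change -1.73, SE 0.22, adjusted p = 0.0311) and day 14 (-2.17, adjusted p = 0.0045). The level on day 14 is close to 4.716 log2, below which genes were not tested.

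Treh, the other sugar-splitting member, gave a dim and level signal. Its 9 values ran from 4.38 to 4.49 log2, and all lay under the testing level. The means were 4.44 ± 0.04 on heme (SD, n = 4) and 4.41 ± 0.02 on the control diet (SD, n = 5). The highest value was the heme pool of day 14.

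The meprins differed from each other. Mep1a, the subunit that can be shed into the lumen, read 11.14, 11.24, 11.13, 11.23 and 11.12 log2 in the control pools of days 0 to 14. Its heme pools read 11.15, 11.07, 10.63 and 10.25. On day 2 heme lay inside the control range, on day 4 it lay just below it, and on days 7 and 14 it lay well below. Against the control pools the log2 fold change was -0.02 and -0.10 on days 2 and 4 (limma adjusted p = 0.998 and 0.927), -0.54 on day 7 (SE 0.06, adjusted p = 0.0207) and -0.92 on day 14 (adjusted p = 0.00226). With each array centred on its median the small value of day 2 was 0.01. Mep1b, the subunit that stays in the membrane and binds its partner there, read 9.75 to 9.98 in the control pools and 9.95, 9.90, 10.02 and 10.04 in the heme pools. It lay above the same day's control pool by 0.08, 0.14, 0.13 and 0.15 log2, and the groups overlapped. Its log2 fold change was 0.10 over all days (adjusted p = 0.305) and 0.16 on day 14 (adjusted p = 0.164).

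The aminopeptidases also differed in size. Enpep, which trims acidic residues and cleaves angiotensin, read 7.66, 7.95, 7.96, 8.32 and 8.11 log2 in the control pools of days 0 to 14 and 7.84, 7.82, 7.54 and 7.03 in the heme pools. The control pool of day 0 lay below the heme pools of days 2 and 4, so the groups overlapped. Against the same day's control pool heme was lower by -0.11, -0.15, -0.79 and -1.08 log2. The control pools of days 7 and 14 were also the highest of their diet. Against all control pools the log2 fold change of -0.97 on day 14 was called (SE 0.22, limma adjusted p = 0.0239), and that of -0.46 on day 7 was not (adjusted p = 0.374). Leaving out the control pool of day 2, 4 or 14 ended the call of day 14 (adjusted p = 0.0565, 0.0535 and 0.0561). Anpep, which trims neutral residues, read 6.48, 6.44, 6.47, 6.44 and 6.64 on the control diet and 6.36, 6.25, 6.21 and 6.30 on heme. Its groups did not overlap, although the gap was small, with a log2 fold change of -0.21 over all days (SE 0.06, adjusted p = 0.148) and -0.19 on day 14 (adjusted p = 0.159). With each array centred on its 75th percentile the value of day 14 was -0.10 (adjusted p = 0.439).

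Dpp4 differed by little. The control pools ran from 8.90 to 8.99 log2, and the heme pools read 8.87, 8.92, 8.79 and 8.75. The heme pools of days 2, 7 and 14 lay below all control pools by a narrow margin, and that of day 4 lay inside the control range. The log2 fold change was -0.21 on day 14 (SE 0.05, limma adjusted p = 0.0225) and -0.17 on day 7 (adjusted p = 0.122). With each array centred on its 75th percentile the value of day 14 was -0.11 and the call was lost (adjusted p = 0.0818). That percentile was 7.673 log2 on the heme array of day 14 and between 7.745 and 7.794 on the others. T and NK cells also carry Dpp4 on their surface. The mean of 7 markers of those cells ran from 5.79 to 5.88 log2 on heme and from 5.91 to 5.98 on the control diet, and their part in the result was not tested.

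Alpi was the member that rose. Its control pools read 7.99, 8.39, 8.07, 8.14 and 8.09 log2 on days 0 to 14, and its heme pools 8.42, 8.68, 9.18 and 9.44 on days 2 to 14. Each heme pool was higher than the one before and all lay above the control range, though on day 2 only by 0.03 above the control pool of the same day. The later gaps to the same day's pool were 0.61, 1.04 and 1.35 log2. Over all days the means were 8.93 ± 0.47 on heme (SD, n = 4) and 8.13 ± 0.15 on the control diet (SD, n = 5), a difference of 0.79 log2 (SE 0.18, limma adjusted p = 0.111) that ranked 26 from the top. Alpi was called on day 7 (log2 fold change 1.05, SE 0.14, adjusted p = 0.0333) and day 14 (1.30, adjusted p = 0.00481). Akp3, the other intestinal alkaline phosphatase of the mouse and a close relative of Alpi in sequence, stood at 5.60 ± 0.08 on heme (SD, n = 4) and 5.55 ± 0.04 on the control diet (SD, n = 5), with a log2 fold change of 0.05 (adjusted p = 0.606).

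**Figure D1:**
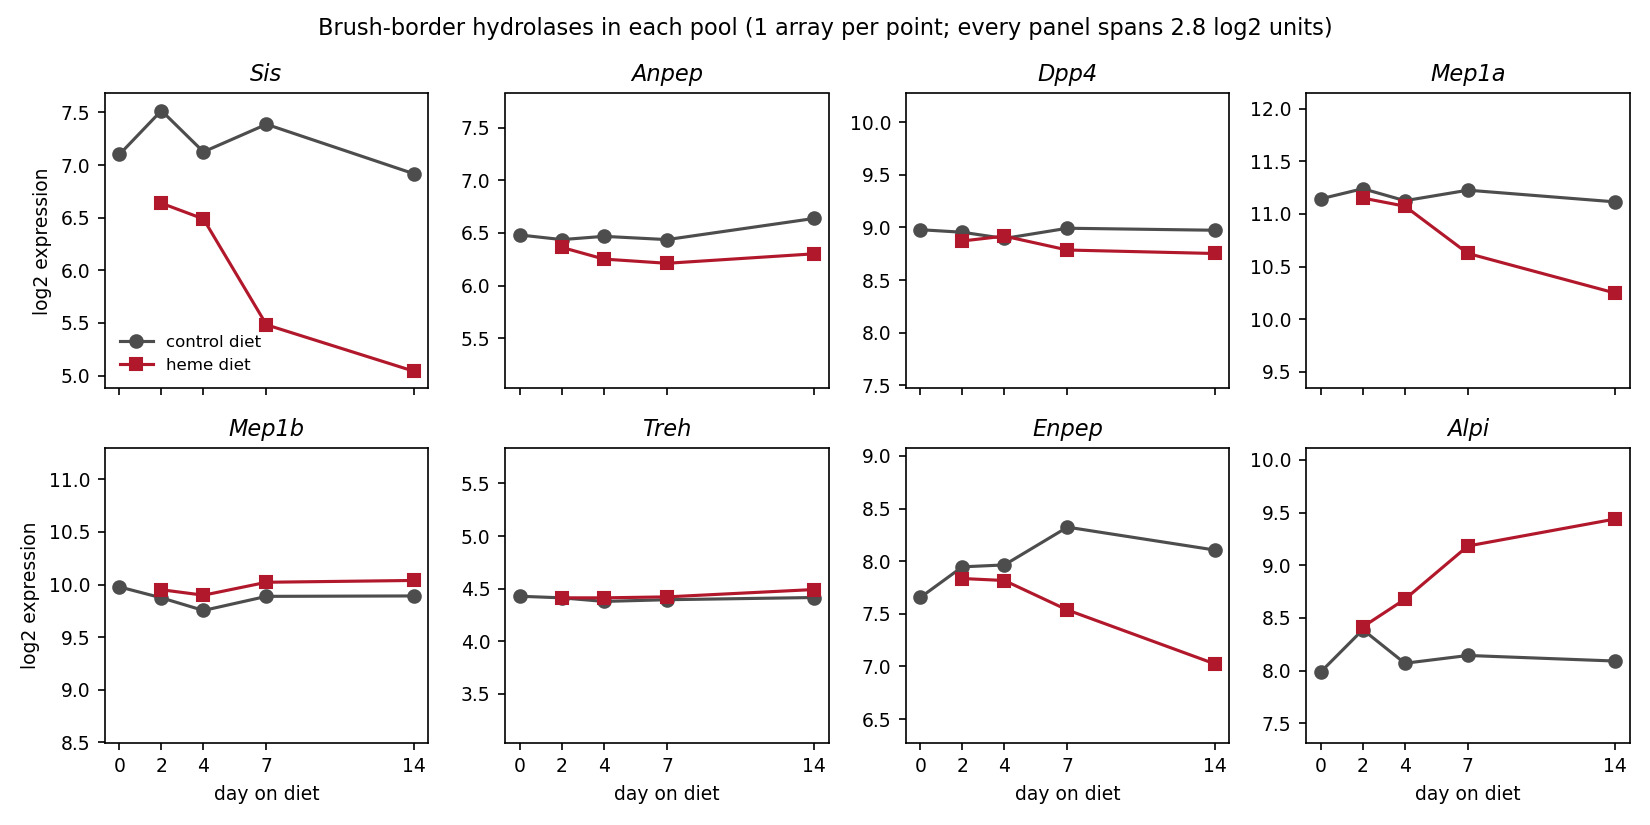
Log2 expression of the 8 hydrolases (y axis, every panel spanning the same number of log2 units) against day on diet (x axis), with 1 point per pool, grey circles for the control diet and red squares for the heme diet. Sis drops on heme from 6.64 to 5.04, Mep1a from 11.15 to 10.25 and Enpep from 7.84 to 7.03 between days 2 and 14, and Alpi climbs from 8.42 to 9.44.

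Over the whole heme diet, that is 4 heme against 5 control pools, limma called 0 of the 7 members tested, against 0.669% of all genes (0.595% higher and 0.0736% lower). At an unadjusted p under 0.05 the comparison held 6 of the 7, all but Mep1b, against 17.0% of all genes. The median log2 fold change of the members was -0.21, beside 0.00 for all genes, with 5 members below 0 and 2 above. Groups that did not overlap were found for Sis, Anpep and Alpi, 3 of the 7, and for 5.60% of all genes (3.26% with heme higher and 2.33% with heme lower). The heme pools fell at each step from day 2 to day 14 in Sis, Mep1a and Enpep, a pattern of 9.97% of all genes, and climbed at each step in Alpi, a pattern of 6.32%. A single array decided whether Sis and Alpi were called here, and the other members tested were called in no alternative fit of this comparison. Without the heme pool of day 2, which lay nearest to the control pools, Sis (adjusted p = 0.0312) and Alpi (adjusted p = 0.0179) were called, and without both pools of day 2 Alpi alone was (adjusted p = 0.0331).

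Day by day, each heme pool was set against the same 5 control pools, so that the days share their controls, and a single heme pool is taken to have the spread of the control pools. No member was called on day 2 (1 of 7 at an unadjusted p under 0.05, Sis) or on day 4 (3 of 7, Sis, Anpep and Alpi), when limma called 0% and 0.00669% of all genes. At an unadjusted p under 0.05 those days held 9.26% and 7.02% of all genes. On day 7 it called Sis and Mep1a lower and Alpi higher, 3 of 7 against 1.63% of all genes (0.883% higher and 0.749% lower). These calls of day 7 were fragile. Without the control pool of day 0, 4, 7 or 14 none of the 3 was called, and without that of day 2 only Alpi was, although the log2 fold change of Sis then stayed between -1.80 and -1.65. Across these 5 fits the adjusted p reached 0.1 for Sis, 0.0811 for Mep1a and 0.105 for Alpi. On day 14, 4 members were called lower and 1 higher, against 15.8% and 11.3% of all genes. Sis, Mep1a and Alpi held their calls in each of the 15 alternative fits of that day. Some of those fits could hardly differ from the main one. The day 14 value rests on its own heme pool and the control pools, so leaving out another heme pool does not change it. Averaging probesets changes no member, as each had 1.

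**Figure D2:**
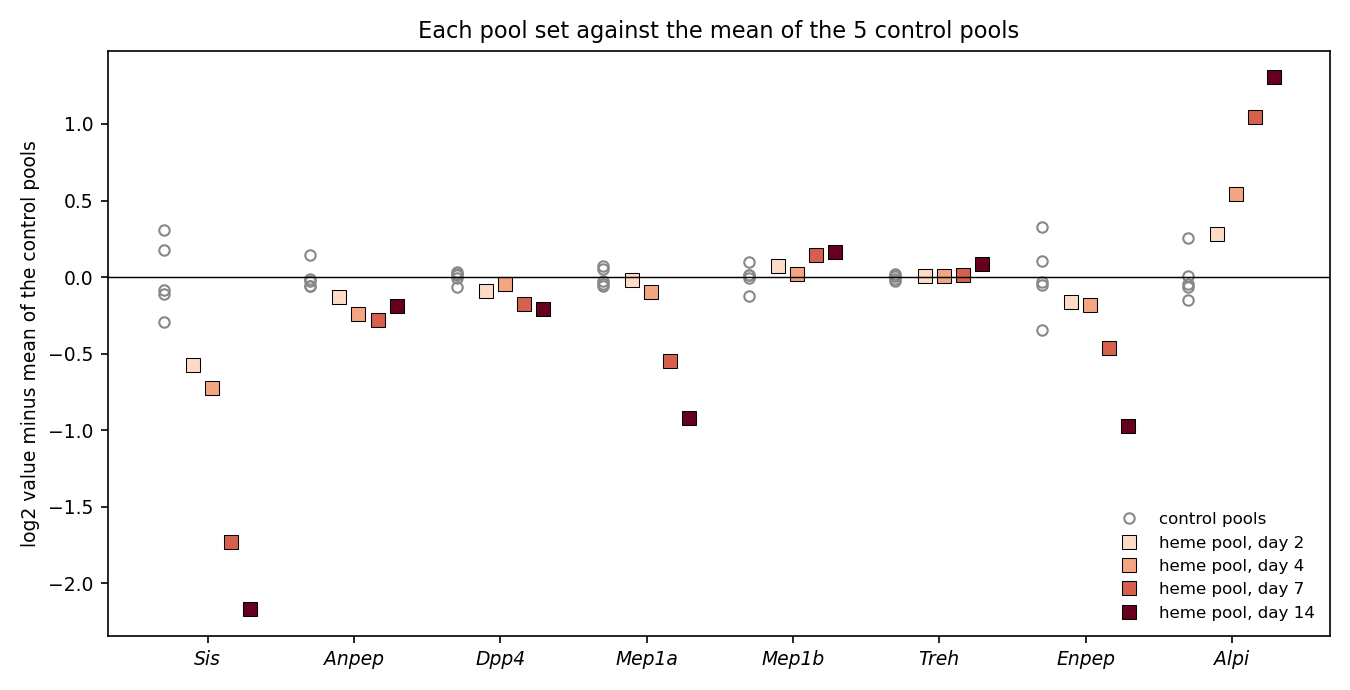
Each pool's log2 value minus the mean of the 5 control pools (y axis) for the 8 hydrolases (x axis), with open circles for control pools and squares for heme pools, darker with the day. The heme pools of Sis step down to -2.17 and those of Alpi step up to 1.30, while the farthest heme pool of Mep1b is at 0.16.

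The title's question of immediate and delayed change was put to the members by taking the difference between the diets on days 7 and 14 minus that on days 2 and 4. The value was -1.13 log2 for Sis (SE 0.29), -0.80 for Enpep (SE 0.21), -0.66 for Mep1a (SE 0.16) and -0.18 for Dpp4 (SE 0.07), and 0.88 for Alpi (SE 0.19). For Anpep it was -0.14 (SE 0.13), and between -0.24 (without the control pool of day 7) and -0.04 (without that of day 14) when 1 pool was left out. For Mep1b it was 0.03 (SE 0.07), and -0.03 without the control pool of day 2. No member was called by limma (adjusted p between 0.424 and 0.919), and neither was any other gene, so the background is 0%. At an unadjusted p under 0.05 it held 5 of the 7 members and 6.62% of all genes. Already on days 2 and 4 Sis lay 0.57 and 0.72 log2 under the control mean and Alpi 0.28 and 0.54 above it. Mep1a and Enpep lay no more than 0.18 under it. None of these values of days 2 and 4 was called.

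A test of the whole course, added after the values had been seen, compared the slopes of the diets on log2(day + 1), with both lines starting from the same value at day 0. Sis lost 0.49 log2 more on heme than on the control diet for each unit of that scale (slope difference -0.49, SE 0.06, limma adjusted p = 0.00201), and Alpi gained 0.31 (SE 0.03, adjusted p = 0.00171). Enpep (-0.22, adjusted p = 0.0247), Mep1a (-0.17, adjusted p = 0.0253), Anpep (-0.08, adjusted p = 0.0447) and Dpp4 (-0.05, adjusted p = 0.0496) were also called. Mep1b was not (0.04, adjusted p = 0.119). That made 6 of 7 members against 6.73% of all genes (3.00% higher and 3.73% lower). Sis and Alpi kept their calls when any 1 pool was left out (adjusted p up to 0.0252 and 0.0257), and neither kept it without both pools of day 14 (adjusted p = 0.0618 and 0.106). Enpep lost its call without either pool of day 14 or the control pool of day 7, and Mep1a without either pool of days 7 and 14 or the control pool of day 2, with adjusted p up to 0.144 and 0.179. Anpep lost it in 8 of the 9 such fits, Dpp4 in 7. On the control diet alone the slopes of the 7 members lay between -0.04 and 0.14, and none was called (limma, background 0%). At an unadjusted p under 0.05 there was 1 of 7, Enpep (adjusted p = 0.677), and 7.18% of all genes. Single pools moved these slopes. That of Sis was -0.04 with all pools, -0.21 without day 0 and 0.06 without day 14, that of Alpi went from 0.01 to -0.11 without day 0, and that of Enpep ranged from 0.10 without day 0 to 0.20 without day 14.

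Other hydrolases of the brush border did not move as one. Of 16 listed, 14 were named on the array and 12 tested. Over the whole diet 0 were called, and the median log2 fold change was 0.00. The lowest was Mme, the endopeptidase neprilysin (-0.51, limma adjusted p = 0.18), whose heme mean of 4.58 log2 lay under the testing level, and the highest Plb1, a phospholipase (0.20, adjusted p = 0.387). On day 14, 4 of the 12 were lower and 1 higher, beside the 27.1% of all genes called in either direction. These 5, named after their values were seen, were Naaladl1 (-0.95), Mme (-0.80), Xpnpep2 (-0.77) and Ace (-0.24), all peptidases, and lactase, Lct (0.34). Mme was tested only through its control values, so its call lends no support to the count of lower genes. Mgam, the maltase-glucoamylase that is the nearest relative of Sis, stood at 10.79 ± 0.06 log2 on heme (SD, n = 4) and 10.71 ± 0.07 on the control diet (SD, n = 5), with a log2 fold change of 0.09 (adjusted p = 0.336).

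Genes of the frame of the microvillus differed by little. Among 14 tested genes of 15 listed, log2 fold changes over the whole diet ran from -0.09 for the scaffold Ush1c (limma adjusted p = 0.275) to 0.12 for the actin bundler Pls1 (adjusted p = 0.154), and 0 were called. On day 14, 3 were called higher and 3 lower, none by more than 0.28 log2, beside 11.3% and 15.8% of all genes. Villin, Vil1, the bundler that defines the brush border, stood at 11.37 ± 0.07 on heme (SD, n = 4) and 11.31 ± 0.02 on the control diet (SD, n = 5), and was among those higher on day 14 (0.17, adjusted p = 0.0139).

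Transporters of peptides, amino acids and sugars went both ways. Of 9 tested transporters of peptides and amino acids none was called over the whole diet. The highest was Slc3a1, which carries cystine and basic amino acids with its partner (0.51, limma adjusted p = 0.0865), and the lowest Slc6a20a, a carrier of imino acids (-0.41, adjusted p = 0.185). On day 14, 2 were called higher and 3 lower, beside 11.3% and 15.8% of all genes. Of 5 tested sugar transporters none was called over the whole diet. On day 14, 3 were called higher and 2 lower, beside the same shares of all genes. One of the higher, Slc5a4b, had a control mean under the testing level and was tested only through its heme values, so its call lends no support to that count. The sodium-glucose carrier Slc5a1 was lowest over the whole diet (-0.32, adjusted p = 0.121) and was lower on day 7 (-0.53, adjusted p = 0.0112) and day 14 (-0.46, adjusted p = 0.00413). Slc5a4b was highest (0.45, adjusted p = 0.28), with a control mean of 4.63 log2.

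Among 12 tested transcription factors of enterocytes, 1 was called over the whole diet, Creb3l3, a factor of lipid metabolism (1.35, limma adjusted p = 0.00601). Cdx1 and Cdx2, homeodomain factors known to act on the Sis promoter, differed by -0.02 and 0.06 log2 (adjusted p = 0.744 and 0.366), and Hnf4a by 0.07 (adjusted p = 0.352). On day 14, 2 of the 12 were called higher and 2 lower, beside 11.3% and 15.8% of all genes. Hnf4g was among the lower (-0.43, adjusted p = 0.00395, named after its value was seen).

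Genes better known from the small intestine, where Sis is most abundant, were called in both directions. Of 10 tested, Fabp2, the intestinal fatty acid binding protein (0.70, limma adjusted p = 0.00715), and Rbp2, a retinol binding protein (0.72, adjusted p = 0.0187), rose over the whole diet, and Fabp6, the bile acid binding protein (-0.83, adjusted p = 0.039), fell. On day 14, 5 of the 10 were called higher and 3 lower, beside 11.3% and 15.8% of all genes. Slc10a2, the bile acid carrier of the ileum, was among the lower (-1.30, adjusted p = 0.00226, named after its value was seen). Of 12 colonocyte genes the water channel Aqp8 rose (0.66, adjusted p = 0.0113) and the monocarboxylate carrier Slc5a8 fell (-0.46, adjusted p = 0.0165). On day 14, 4 of the 12 were called higher and 2 lower, beside the same shares of all genes. Of 7 Hox genes that mark the distal colon none was called over the whole diet. Their log2 fold changes ran from -0.42 for Hoxd10 (adjusted p = 0.278) to 0.16 for Hoxd12 (adjusted p = 0.256), and their mean level lay between 6.76 and 7.05 log2 on heme and between 7.01 and 7.34 on the control diet. The 7.34 was the control pool of day 0 alone, and the other control pools lay between 7.01 and 7.04. Against the same day's control pool the mean on heme differed by 0.035, -0.080, -0.072 and -0.259 log2 on days 2, 4, 7 and 14. On day 14, 2 of the 7 were called lower, beside 15.8% of all genes. They were Hoxb13 (-0.48, adjusted p = 0.0134) and Hoxd13 (-0.67, adjusted p = 0.0477), both named after their values were seen. The median of the 7 on that day was -0.37, beside 0.00 for all genes, against a control mean that holds the high pool of day 0. Which stretch of the colon was scraped is not given by the labels, and its part in the results on Sis was not tested.

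**Figure D3:**
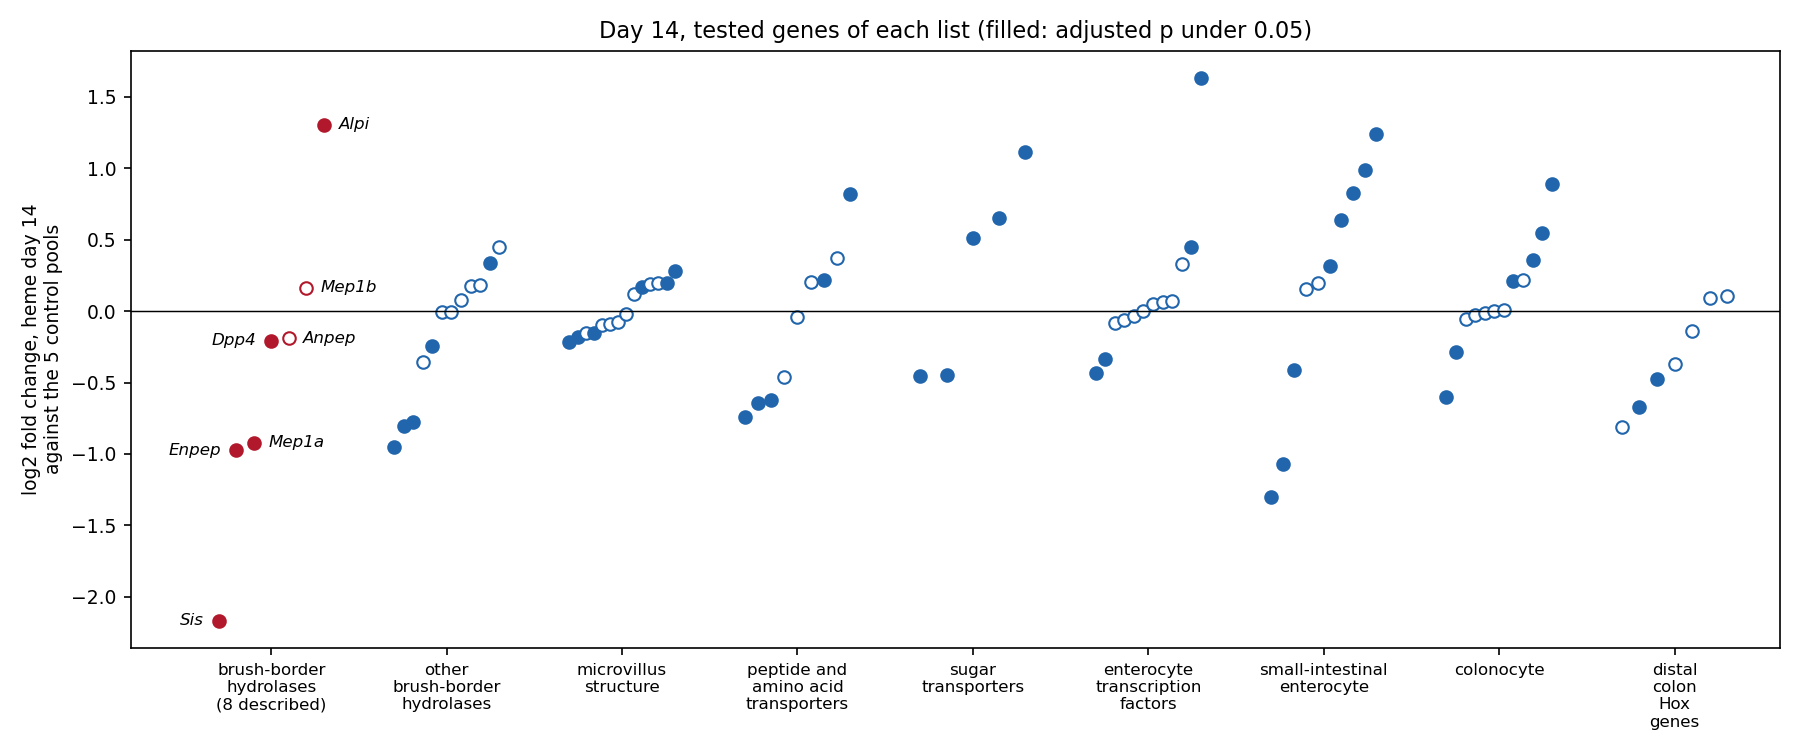
Log2 fold change of the heme pool of day 14 against the 5 control pools (y axis) for each tested gene of 9 lists (x axis), filled where the adjusted p is under 0.05, with the hydrolases described here in red and named. Sis at -2.17 lies below every other gene shown, and Alpi at 1.30 lies below Creb3l3 alone, which is at 1.63.

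The scrapings were epithelial by their markers, and pools differed in what else they held. The mean of 8 epithelial markers lay between 11.83 and 11.91 log2 in all 9 pools. The mean of 13 exocrine pancreas markers was 8.70 and 9.36 in the control and heme pools of day 2 and between 5.20 and 5.36 in the others, and 8 smooth muscle markers ran from 6.89 to 9.20 on the control diet and from 6.78 to 8.56 on heme. Sis, Mep1a and Alpi had their highest control value on day 2. Without both pools of that day the log2 fold change over the whole diet was -1.46 for Sis, -0.50 for Mep1a and 1.03 for Alpi, each farther from 0 than with them. For each of these genes the heme pool of day 2 was the heme pool nearest to the control mean. Leaving it out moves the heme mean away whatever that pool held, so these fits cannot show what the pancreas content did. The part of that content was not tested. Fibroblast markers (8 genes) ran from 7.32 to 8.40 on the control diet and from 7.21 to 8.10 on heme, and pericyte markers (6 genes), whose cells can carry Anpep and Enpep, from 6.21 to 6.77 and from 6.15 to 6.66. Their part in the results was not tested.

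**Figure D4:**
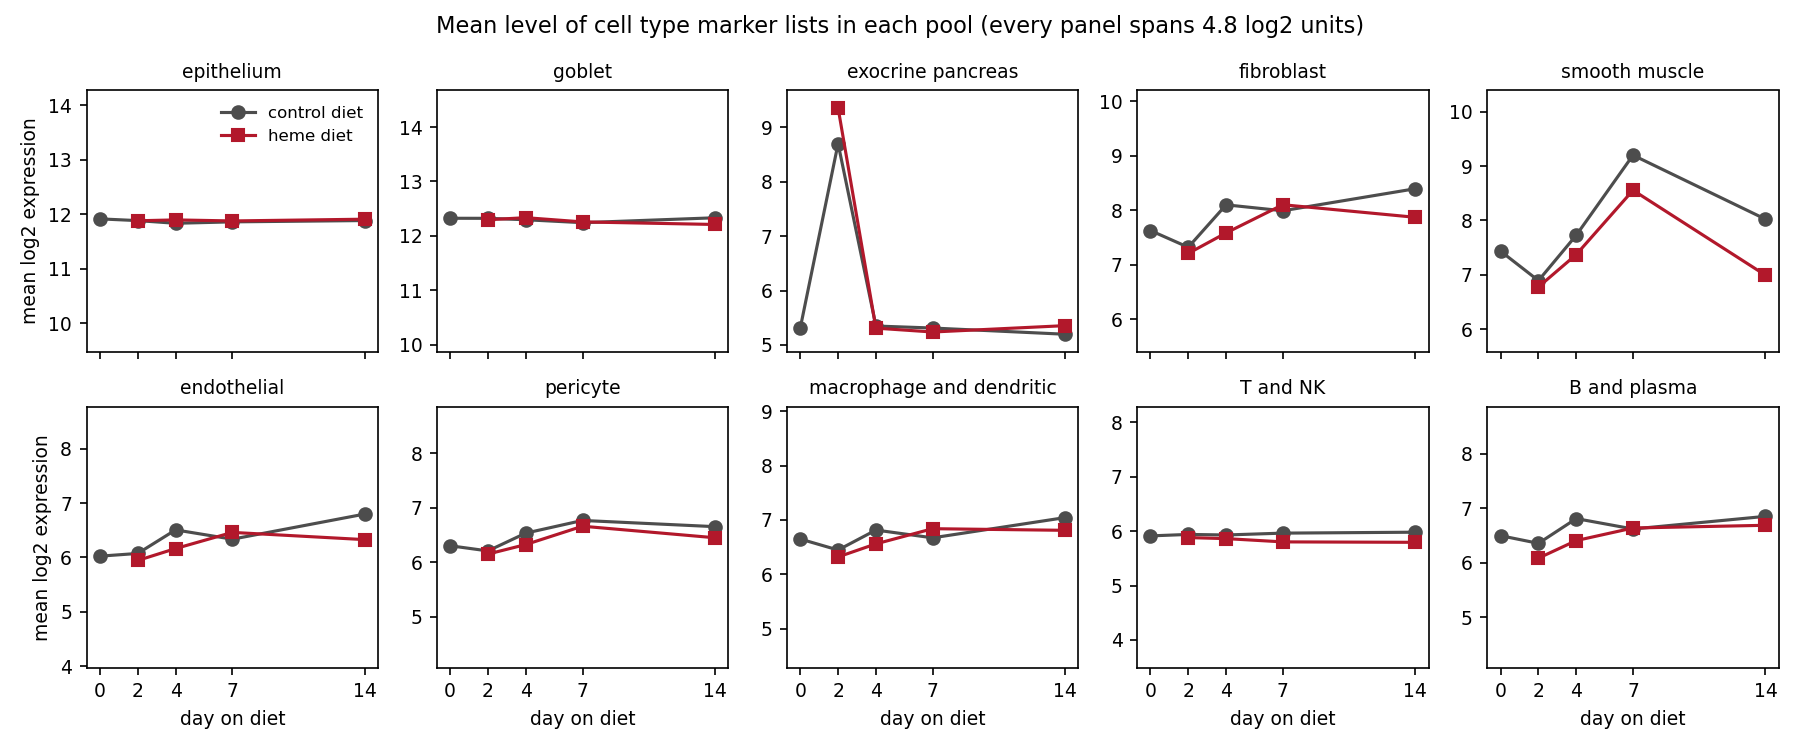
Mean log2 expression of 10 lists of cell type markers (y axis, every panel spanning the same number of log2 units) against day on diet (x axis), with grey circles for control pools and red squares for heme pools. Epithelial markers look level at this scale, and goblet markers run from 12.21 in the heme pool of day 14, the lowest of all pools, to 12.335. Exocrine pancreas markers stand at 8.70 and 9.36 in the pools of day 2, and smooth muscle markers peak on day 7 in both diets.

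Across the 9 arrays the members that fell went together and against Alpi. As a description, with diet and day shared by all points, Pearson's r was 0.95 between Sis and Mep1a, 0.92 between Sis and Dpp4, 0.85 between Sis and Enpep and 0.66 between Sis and Anpep, and it was -0.92 between Sis and Alpi. Anpep was less close to Mep1a and Enpep (r = 0.546 and 0.558). The meprins ran against each other (r = -0.68). Treh, whose signal was level, had r = -0.825 with Mep1a and -0.865 with Enpep, so a high r does not mark a gene that moved far. Outside the list, the genes most like Sis were Ptprd (r = 0.99), Ppp3ca (0.99) and Cubn, the receptor cubilin (0.98), of which Cubn differed from the control mean by -1.515 log2 on day 14. Those most like Mep1a were Dio1 (1.00), Ttyh3 (0.99) and Slc7a8 (0.99). Those most like Enpep were Rab11fip2 (0.97), Zfp106 (0.96) and Plcl1 (0.96). Those most like Alpi were Nqo1, a quinone reductase of the antioxidant response, Pgap1 and Cystm1, each at 0.98. The others were Npy1r, Steap2 and Slc5a9 for Anpep (0.97, 0.97 and 0.95), Cmpk2, Hottip and Kcne3 for Dpp4 (0.99, 0.99 and 0.98), Pigs, Ifi27l2b and Slc25a1 for Mep1b (0.97, 0.97 and 0.96), and Pkmyt1, Pkp3 and Adm2 for Treh (0.98 each), whose own range was under 0.12 log2.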

How the data were processed

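Colon RNA pools of 9 diet-and-day groups were measured on 1 Affymetrix array each. The authors deposited log2 values for each probeset. The submitters' processing notes name RMA, a method that sets the probe values of all arrays to one distribution, so only relative changes are measured. The deposited probeset values still differed slightly between arrays, with medians from 5.895 to 5.963 log2. Its version was not given in the sources used here. Precision is limited by how few arrays there are. Probesets with 1 gene symbol in the platform annotation (21789 of 35556) were used, keeping the probeset with the highest mean for each of 19938 genes. Genes with a mean at or above the 25th percentile (4.716 log2) were tested, 14953 in all. Linear models were fitted with limma 3.58.1 in R 4.3.3 (lmFit, and eBayes with a trend on intensity). Benjamini-Hochberg adjustment ran over all genes tested, and a call is an adjusted p under 0.05. The fits were also run on simulated data with independent noise in each array. Those data lack effects shared by pools of a day, so they cannot vouch for the tests in this design. Figures were drawn with matplotlib 3.10.9.

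The members and the 18 other gene lists (174 genes, 164 matched), written from textbook knowledge, were chosen with earlier results of these data known. Named genes are all members, the called genes of each pathway list or else its highest and lowest log2 fold change, and the 3 genes most correlated with each member. Akp3, Mgam, Vil1, Cdx1, Cdx2 and Hnf4a were named outside this rule, for their kinship or known role, after their values were seen, as were the day 14 and day 7 values of listed genes. The labels share the day between diets. Deviations of the same day's pools correlated with r = 0.651, -0.005, 0.333 and 0.168 on days 2, 4, 7 and 14. Between a control and a heme pool of different days r ran from -0.454 to 0.422, so only the value of day 2 lay outside that span. A fit with the day as a block was run for the whole diet and for late minus early, where no member was called with or without it. Alternatives were other filters, priors, scalings and probeset rules, the day block, and leaving out pools or days.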

Additional observations from a re-analysis of the deposited data

Results flagged for a closer look

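In 2 of the 16 groups of pools examined, 1 pool stood far from the others of its diet for a member, against about 1 in 20 that chance would give. For Anpep it was the control pool of day 14, at 6.638 log2, where the other control pools lay between 6.44 and 6.48. Without that pool the log2 fold change of Anpep over the whole diet was -0.17. For Treh it was the heme pool of day 14, at 4.492 log2, where the other heme pools lay at 4.41 to 4.42, all of them under the level at which genes were tested.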

How the results depend on the processing

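The directions of Sis, Anpep, Mep1a, Enpep, Dpp4 and Alpi over the whole diet and on days 7 and 14 did not turn in any alternative run. Over the whole diet the count of members called was 0 in the main analysis, between 0 and 2 when 1 pool was left out, and 1 without both pools of day 2. All genes called numbered 100, between 30 and 251 without 1 pool, and 1, 0 and 0 without both pools of days 4, 7 and 14 (limma). On day 7 the members called were 3, and between 0 and 3 without 1 pool, and on day 14 they were 5, and 4 or 5. In the comparison of slopes they were 6, between 2 and 5 without 1 pool, and 2, 2 and 0 without both pools of days 2, 7 and 14. With the day as a block (replicate block), 0 members and 77 genes were called over the whole diet, and 0 members in late minus early; single days, with 1 heme pool each, were not run with a block. Without the filter on dim genes Alpi lost its call of day 7 (adjusted p = 0.0509). With arrays centred on the 75th percentile Mep1b was called on day 14 (0.26, adjusted p = 0.0261). With 1 pool per diet and day, differences within a day have no error of their own, and signals near the testing level, as of Treh and of Sis on heme, limit what a fold can show.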
